A study of Mus musculus with 14 samples.

Results

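Oligodendrocytes wrap axons of the brain in myelin, and the 34 genes described here follow that lineage from its dividing precursors to the finished sheath. They were taken by gene symbol from a table of read counts over 48440 genes, and each of the 34 symbols matched 1 row. They fall into 6 stages: 4 precursor genes, 4 lineage transcription factors, 4 genes of committed precursors and newly formed oligodendrocytes, 2 maturation factors, 13 genes of myelin structure, and 7 of myelin lipids and metabolism. Bulk RNA was sequenced from C57BL/6 mice, either CARIP-/- knockouts or wild type. The cerebellum gave 3 knockout and 3 wild-type libraries, the cerebral cortex 2 and 2, and the hippocampus 2 and 2, 14 in all. All groups share the strain; the labels give no age, no sex and no description of how the allele was made, and do not say whether a library is 1 animal or a pool. They name the deleted gene only as CARIP, a symbol that no row of the table carries, so the deletion itself was not checked here. Sample numbers follow the labels, which run from 1 to 3 in the cerebellum, 1 and 2 for knockout and 2 and 3 for wild-type cortex and hippocampus.

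The lineage begins with precursors that carry the growth factor receptor Pdgfra and the surface proteoglycan encoded by Cspg4. The transcription factors Olig1, Olig2, Sox10 and Nkx2-2 hold cells in the lineage, the receptor Gpr17 marks cells that have committed to differentiate and is switched off as they mature, and Myrf then drives genes of the sheath. Mature cells make large amounts of myelin proteins such as Mbp and of galactolipids, which need the enzymes encoded by Ugt8a, Fa2h and Gal3st1.

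The libraries held 20055166 to 38770999 counted reads each, and all 34 genes were among the 24680 with enough reads to be tested. Levels are given as CPM, counts divided by the scaled size of the library, and levels of different genes are set against each other only per kilobase of exon (RPKM). The region labels were met by marker genes: Gabra6, a receptor subunit of cerebellar granule cells, stood at 295 to 516 CPM in the cerebellum, at most 0.34 CPM in cortex and at most 8.47 CPM in hippocampus. Fibcd1, a marker of hippocampal pyramidal cells, stood at 116 to 130 CPM in hippocampus and at most 21.4 CPM elsewhere. Some libraries stood apart in how much of neighbouring tissue or of white matter genes they held. The sum of 8 choroid plexus genes was 1713, 1635 and 1491 CPM in knockout cerebella 1 to 3, against 123, 1217 and 2031 CPM in wild-type cerebella 1 to 3. In cortex, knockout 2 held 583 CPM of 8 striatal neuron genes, 650 CPM of 8 thalamic neuron genes and 1090 CPM of the choroid plexus genes. The other 3 cortical libraries held 94.3 to 117 CPM, 265 to 277 CPM and 233 to 279 CPM of these lists. Cerebella numbered 2 held more of some neuronal genes than the other cerebella did. Nefl held 285 CPM in knockout 2 and 358 CPM in wild type 2, against 79.3 to 117 CPM. The thalamic gene Tcf7l2 held 19.2 and 45.3 CPM, against 8.65 to 11.7 CPM. The 8 pan-neuronal genes summed to 4831 and 5292 CPM there, against 4041 to 4292 CPM in the other cerebella. The striatal and thalamic sums did not rise. Striatal genes held 92.6 and 83.0 CPM, against 72.7 to 102 CPM, and thalamic genes 606 and 534 CPM, against 629 to 691 CPM. The median gene of each of these lists was still highest in the cerebella numbered 2. As log2 of CPM (with a small constant added) over the cerebellar mean, the median striatal gene stood at 0.09 and 0.65, against -0.32 to -0.20. The median thalamic gene stood at 0.05 and 0.10, against -0.11 to 0.003. In hippocampus the choroid plexus sum was 220 and 241 CPM in knockout 1 and 2, against 1747 and 330 CPM in wild type 2 and 3. The 8 Schwann cell genes summed to 15.4 to 65.3 CPM over the 14 libraries.

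Promoter sequences from RefSeq (GRCm38.p6) were on hand for 26 of the 34 genes. The windows below, of 300 bases each, belong to the members whose knockout and wild-type levels stood farthest apart relative to the rest of the lineage, described further on; Opalin and Pllp were low there and Nkx2-2 high. Capitals mark matches, on either strand, to ACAAAG or ACAATG (letters bound by Sox factors), CTGGNAC (letters bound by Myrf) or CAGCTG (an E-box of the kind bound by Olig factors), each motif searched by itself; the matches shown do not overlap. The windows lie on the minus strand at chr19:41077064-41077363 (Opalin), chr8:94696193-94696492 (Pllp) and chr2:147186353-147186652 (Nkx2-2), and are written 5′ to 3′ along the gene.
Opalin: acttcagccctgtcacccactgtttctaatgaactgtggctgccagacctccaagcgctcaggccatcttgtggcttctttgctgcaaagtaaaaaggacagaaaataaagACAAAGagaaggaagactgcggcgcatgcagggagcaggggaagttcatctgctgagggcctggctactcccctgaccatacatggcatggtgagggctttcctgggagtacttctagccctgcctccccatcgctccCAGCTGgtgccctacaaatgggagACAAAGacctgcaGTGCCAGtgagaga
Pllp: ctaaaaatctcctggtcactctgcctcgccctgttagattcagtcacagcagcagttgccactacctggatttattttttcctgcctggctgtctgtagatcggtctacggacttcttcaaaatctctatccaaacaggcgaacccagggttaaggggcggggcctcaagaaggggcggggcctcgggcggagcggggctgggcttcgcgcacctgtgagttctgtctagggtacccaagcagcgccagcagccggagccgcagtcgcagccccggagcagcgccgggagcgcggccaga
Nkx2-2: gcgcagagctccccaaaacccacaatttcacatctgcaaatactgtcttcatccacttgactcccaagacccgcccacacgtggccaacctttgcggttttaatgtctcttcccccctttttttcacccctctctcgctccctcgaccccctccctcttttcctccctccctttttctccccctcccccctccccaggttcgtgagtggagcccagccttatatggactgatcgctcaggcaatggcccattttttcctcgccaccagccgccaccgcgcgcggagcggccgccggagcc

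In the Opalin window ACAAAG begins at positions -139 and 24 relative to the gene's start, CAGCTG at position -1, and a minus-strand match to CTGGNAC at position 37. The Pllp and Nkx2-2 windows held none of these letters. Among all 32851 promoters in the table, 18.7% held ACAAAG, 12.6% ACAATG, 19.3% CTGGNAC and 16.3% CAGCTG, and among the 35 promoters of member genes 28.6%, 20%, 28.6% and 8.57% did. A match is a string of letters and no evidence of binding.

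The abundance of the 34 genes spanned the course of the lineage. Mbp, a main protein of compact myelin, was the most abundant, with a mean of 222 RPKM over the 14 libraries, followed by Mobp with 97.5 RPKM and the lipid-stage gene Plekhb1 with 62.8 RPKM. The leading genes of the other stages were Tnr with 26.4 RPKM, Olig1 with 20.4, Myrf with 7.7 and Gpr17 with 5.85 RPKM. Bmp4, a ligand that opposes oligodendrocyte differentiation, was the least abundant at 0.765 RPKM. Tnr encodes an extracellular matrix glycoprotein that some neurons also make, so its level is not read as precursors alone.

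**Figure D1:**
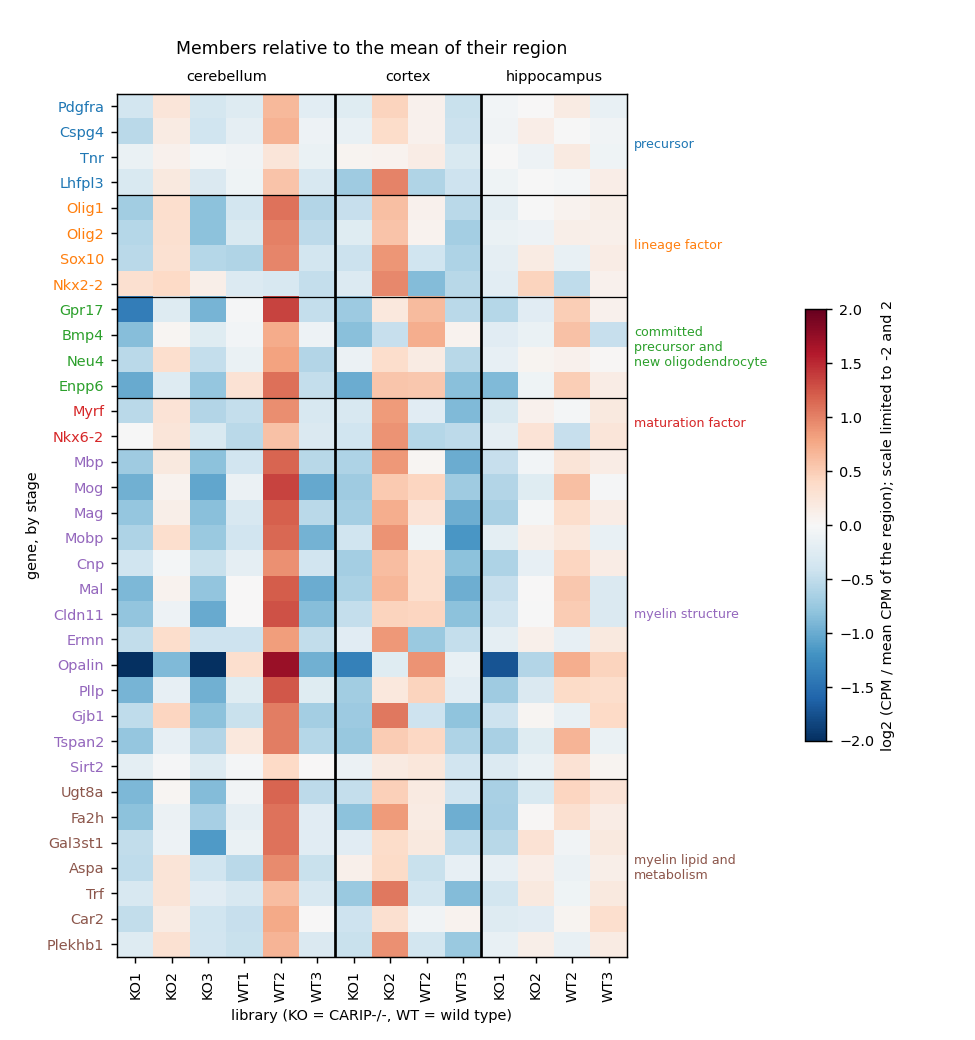
Level of each of the 34 genes (rows, by stage) in each of the 14 libraries (columns), as log2 of CPM over the mean of the library's region; KO is CARIP-/- and WT wild type. Wild-type cerebellum 2 and knockout cortex 2 are high across nearly all rows, with geometric means of 63.7 and 51.3 CPM over the 34 genes.

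Within a region, libraries differed mainly by a shift of most of the lineage together. The geometric mean of the 34 genes was 21.6, 36.1 and 21.8 CPM in knockout cerebella 1 to 3, against 29.1, 63.7 and 24.7 CPM in wild-type cerebella 1 to 3. Cerebellum 2 was the highest in each genotype. In cortex it was 24.7 and 51.3 CPM in knockout 1 and 2, against 36.1 and 23.2 CPM in wild type 2 and 3, and in hippocampus 30.1 and 38.96 CPM in knockout 1 and 2, against 44.8 and 42.0 CPM in wild type 2 and 3. The map of members by library shows these shifts as columns of 1 colour. In bulk tissue, fewer oligodendrocytes or less white matter in a piece and less RNA per cell cannot be told apart.

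Across regions, 5 of the 12 precursor, lineage factor and committed precursor genes were lower in cerebellum than in both forebrain regions, Nkx2-2 was higher than in both and Lhfpl3 higher than in hippocampus. No gene of myelin structure or of myelin lipids and metabolism passed in any of these comparisons; the stages were not compared with each other by a test. A gene is called here when its adjusted p (edgeR's quasi-likelihood test, Benjamini-Hochberg over all genes) was below 0.05. In cerebellum against cortex 5 of the 34 genes were lower (Pdgfra, Cspg4, Tnr, Gpr17 and Neu4) and 1 was higher (Nkx2-2), where 25.3% of all genes tested were called lower and 23.0% higher. In cerebellum against hippocampus the same 5 were lower, and Lhfpl3 and Nkx2-2 were higher, against 24.7% and 22.6% of all genes. In hippocampus against cortex none was called, where 5.49% of all genes were called higher and 6.48% lower; 1 of the 34, Bmp4, had an unadjusted p below 0.05. The members were thus called no more often than genes at large.

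Pdgfra stood at 22.5 to 45.4 CPM with a median of 24.7 CPM in the 6 cerebella, against 59.8, 95.9, 74.7 and 51.7 CPM in cortex and 59.98, 62.8, 69.7 and 56.0 CPM in hippocampus. No cerebellar library reached the lowest forebrain library. Its level in cerebellum was 0.413 times that in cortex (log2 fold change -1.28, SE 0.22, adjusted p = 4.8e-04) and 0.466 times that in hippocampus (log2 fold change -1.10, SE 0.22, adjusted p = 0.0014).

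Tnr held 173 to 227 CPM with a median of 185 CPM in cerebellum, against 440, 445, 467 and 341 CPM in cortex and 478, 447, 546 and 450 CPM in hippocampus. The groups did not overlap, and Tnr in cerebellum was 0.398 times its hippocampal level (log2 fold change -1.33, SE 0.11, adjusted p = 6.7e-07). Cspg4 averaged 14.3 ± 4.86 CPM in cerebellum (SD, n = 6), against 31.1 ± 7.35 CPM in cortex and 29.4 ± 2.06 CPM in hippocampus (SD, n = 4 each).

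Lhfpl3, a membrane protein gene also typical of precursors, ran the other way. It stood at 16.3 to 30.2 CPM with a median of 17.9 CPM in cerebellum, against 10.7, 11.3, 11.1 and 12.4 CPM in hippocampus, without overlap (log2 fold change 0.84, SE 0.29, adjusted p = 0.032). In cortex 3 libraries held 9.85 to 12.1 CPM, and knockout cortex 2 held 32.0 CPM. Part of this gene, 17.7% of its exonic bases, is shared with an opposite-strand gene, and the strand setting of the counting is not given in the sources used here.

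Nkx2-2, a homeodomain factor of the lineage, was the other gene that was higher in cerebellum. It stood at 4.0 to 7.36 CPM with a median of 5.33 CPM there, against 2.5, 5.85, 1.65 and 2.06 CPM in cortex and 2.63, 4.14, 2.14 and 3.23 CPM in hippocampus. Knockout cortex 2 and knockout hippocampus 2 lay inside the cerebellar range, the other 6 forebrain libraries below it. The log2 fold change was 0.96 against cortex (SE 0.25, adjusted p = 0.0064) and 0.85 against hippocampus (SE 0.25, adjusted p = 0.013). Part of its exonic bases, 9.67%, is shared with the opposite-strand gene Nkx2-2os, so part of its count may belong to that gene here and in the comparisons further on. Olig1, Olig2 and Sox10 did not pass either test, with log2 fold changes between -0.85 and -0.54.

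Gpr17, the receptor of committed precursors, held 6.37 to 42.4 CPM with a median of 12.9 CPM in cerebellum, against 24.6, 47.2, 63.0 and 28.1 CPM in cortex and 27.4, 35.0, 57.2 and 43.5 CPM in hippocampus. Wild-type cerebellum 2, at 42.4 CPM, was the only cerebellar library within the forebrain range. Gpr17 in cerebellum was 0.375 times its cortical level (log2 fold change -1.42, SE 0.40, adjusted p = 0.014) and 0.382 times its hippocampal level (log2 fold change -1.39, SE 0.40, adjusted p = 0.016). Neu4, a sialidase gene of new oligodendrocytes, averaged 3.91 ± 1.69 CPM in cerebellum (SD, n = 6), against 6.55 ± 1.67 CPM in cortex and 7.46 ± 0.556 CPM in hippocampus (SD, n = 4 each).

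**Figure D2:**
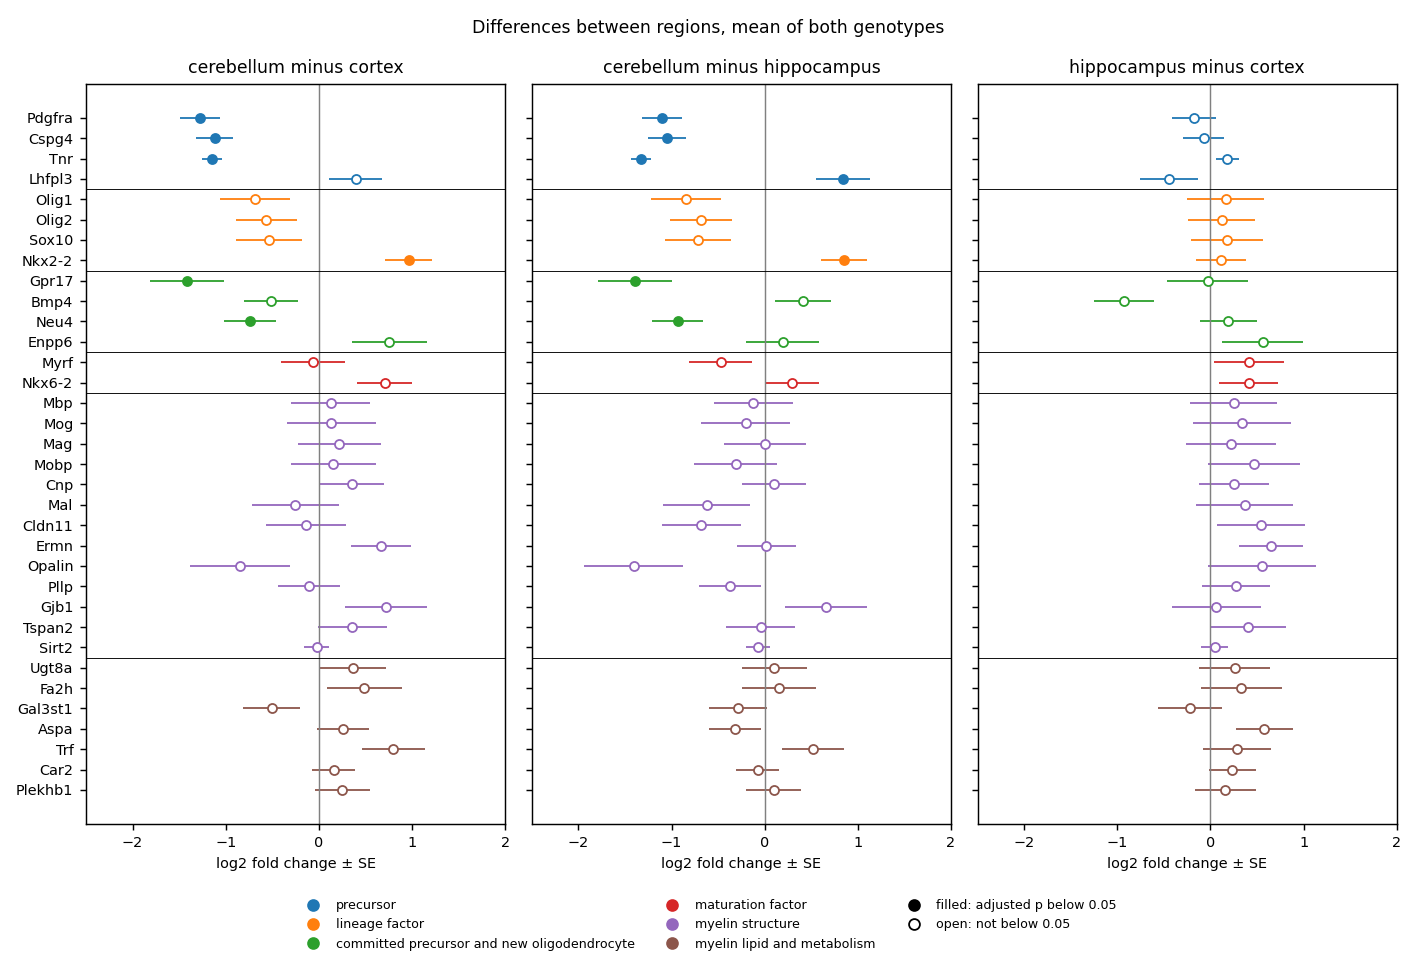
Log2 fold change (x axis, with SE) of each of the 34 genes between regions, first-named region minus the second, as the mean of both genotypes; filled points have an adjusted p below 0.05. The filled points are Pdgfra, Cspg4, Tnr, Gpr17 and Neu4 below 0 and Nkx2-2 and Lhfpl3 above 0, and the 13 myelin structure genes and 7 lipid and metabolism genes are all open.

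How many genes passed between regions rested on single libraries. Pdgfra and Tnr were called lower in cerebellum in both comparisons under all 17 alternatives tried, and Cspg4 under 16 of 17. Neu4 was lost in 7 of 17 against cortex and Lhfpl3 in 9 of 17 against hippocampus. Gpr17 was lost in both comparisons in wild type alone, and without knockout 2 or wild type 2 of the forebrain region compared. Nkx2-2 was lost against hippocampus in wild type alone, without knockout hippocampus 1 and without wild-type hippocampus 2, and was never lost against cortex. Without wild-type cerebellum 2, which had the highest geometric mean, 10 of the 34 were lower in cerebellum than in cortex, against 26.9% of all genes, and 13 lower than in hippocampus, against 26.2%. Those counts then took in Olig1, Olig2, Sox10 and Opalin in both, Gal3st1 against cortex, and Aspa, Cldn11, Myrf and Pllp against hippocampus. Without knockout cortex 2, 7 were higher in cerebellum than in cortex, against 22.5% of all genes (Trf, Ermn, Gjb1, Enpp6, Nkx6-2 and Lhfpl3 besides Nkx2-2), and 3 were lower, against 23.5%. Trf shares 63.5% of its exonic bases with the same-strand gene Gm20425 and Nkx6-2 shares 12.9% with the opposite-strand gene Inpp5a, so their counts may be split with those genes. With genotype and sample number as a block, 4 were higher in cerebellum than in cortex (Enpp6, Nkx2-2, Nkx6-2 and Trf), against 19.9% of all genes, and 5 lower, against 22.3%. The block left Lhfpl3 and Nkx2-2 higher in cerebellum than in hippocampus, against 19.8% of all genes, and 7 lower, against 22.1%, Cldn11 and Opalin joining the 5. It called Bmp4 alone lower in hippocampus than in cortex, against 6.62% of all genes, and none higher, against 5.67%.

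In knockout against wild-type cerebellum, no member was called when the libraries were compared as unpaired groups, nor was any other gene (0% of all genes higher and 0% lower). Of the 34 log2 fold changes, 33 were negative, with a median of -0.49, where 52.1% of all genes were negative and their median was -0.01. The negative side took in all 13 myelin structure genes, with a median of -0.76, all 7 lipid and metabolism genes, with a median of -0.40, and the 4 genes of committed precursors, with a median of -0.82. At an unadjusted p below 0.05, 4 were lower (Opalin, Pllp, Gpr17 and Gal3st1) against 1.71% of all genes, and none was higher, against 1.47%. By DESeq2 none was called either (0.00810% of all genes higher and 0% lower), with 8 lower, against 1.87% of all genes, and 1 higher, against 1.35%, at an unadjusted p below 0.05. The median was 0.04 without wild-type cerebellum 2, with 17 of 34 negative, and -0.26 without both libraries numbered 2, with 27 of 34 negative.

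Opalin, which encodes a membrane protein made by myelinating oligodendrocytes, had the largest difference. It held 0.885, 3.39 and 1.5 CPM in knockout cerebella 1 to 3 (20, 105 and 33 reads), against 7.86, 20.7 and 3.22 CPM in wild-type cerebella 1 to 3 (178, 606 and 82 reads). Knockout 2 lay just above wild type 3, so the groups overlapped, and within each number the knockout was the lower. The level in knockout was 0.185 times that in wild type (log2 fold change -2.43, SE 0.72, unadjusted p = 0.0071, adjusted p = 1).

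Pllp, the gene of the myelin proteolipid plasmolipin, held 10.7, 18.2 and 10.5 CPM in knockout cerebella, against 17.2, 48.4 and 17.3 CPM in wild-type cerebella. Only knockout 2 reached the wild-type range. Its log2 fold change was -1.07 (SE 0.43, adjusted p = 1). An opposite-strand gene shares 54.2% of the exonic bases of Pllp, so part of its count may belong to that gene.

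Ugt8a, which makes galactosylceramide, held 23.0, 44.1 and 23.5 CPM in knockout cerebella, against 41.0, 96.2 and 29.9 CPM in wild-type cerebella. Fa2h, which hydroxylates the fatty acids of these lipids, held 18.1, 29.4 and 20.2 CPM in knockout cerebella, against 28.1, 67.7 and 27.3 CPM in wild-type cerebella. Gpr17 held 6.37, 13.9 and 8.75 CPM in knockout cerebella, against 16.3, 42.4 and 11.9 CPM in wild-type cerebella. For these 3 genes, too, the groups overlapped through knockout 2 alone, and each knockout library was below the wild-type library of its number.

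Mbp held 1146, 2150 and 1073 CPM in knockout cerebella, against 1447, 4215 and 1287 CPM in wild-type cerebella, with a log2 fold change of -0.67 (SE 0.54, adjusted p = 1). Among the precursor genes, Tnr held 175, 202 and 187 CPM in knockout cerebella, against 182, 227 and 173 CPM in wild-type cerebella, and Pdgfra had a log2 fold change of -0.25 (SE 0.28). The only positive member was Nkx2-2, with 6.94, 7.36 and 6.07 CPM in knockout cerebella, against 4.59, 4.47 and 4.0 CPM in wild-type cerebella. All knockout libraries lay above all wild-type libraries, and its log2 fold change was 0.64 (SE 0.30, adjusted p = 1). It was the only member without overlap in cerebellum, where 4.78% of all genes were without overlap and higher in knockout and 4.52% without overlap and lower.

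**Figure D3:**
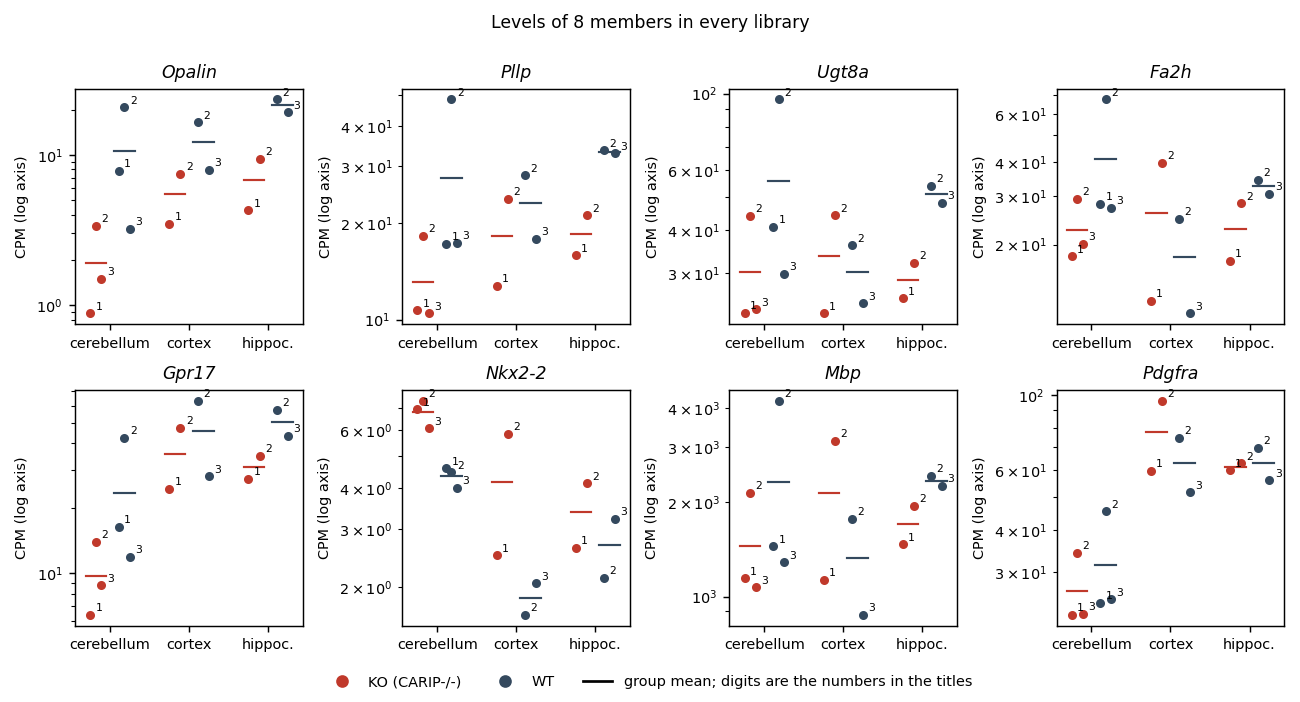
CPM (log axis) of 8 of the genes in every library, by region, with knockout (red) left of wild type (dark); lines are group means and digits the numbers in the sample titles. In cerebellum the libraries numbered 2 are the highest of their genotype for Opalin, Pllp, Ugt8a, Fa2h, Gpr17, Mbp and Pdgfra, and all knockout points of Nkx2-2 (6.07 to 7.36 CPM) lie above the wild-type points (4.0 to 4.59 CPM).

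Comparing cerebella of the same number changed the calls. With the replicate number as a block, 4 members were called lower in knockout, where 0.348% of all genes were, and none higher, where 0.0729% were. They were Opalin (log2 fold change -2.33, SE 0.33, adjusted p = 0.033), Pllp (-0.96, SE 0.15, adjusted p = 0.0081), Ugt8a (-0.79, SE 0.13, adjusted p = 0.033) and Fa2h (-0.77, SE 0.13, adjusted p = 0.033). Enpp6, a choline phosphodiesterase of newly formed oligodendrocytes, and Gpr17 came next, with log2 fold changes of -1.01 (adjusted p = 0.054) and -1.16 (adjusted p = 0.065). The median over the 34 genes was -0.41, with 32 negative, and at an unadjusted p below 0.05 17 members were lower, against 5.64% of all genes, and 1 higher, against 3.72%. The other 30 members did not pass.

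The paired calls rested on the pair numbered 2, whose libraries held more Nefl and Tcf7l2 than the other cerebella. Without that pair 0 members were called, where 0.174% of all genes were lower. Without pair 1 there were 5 (Car2, Gal3st1, Myrf, Opalin and Pllp), against 0.818% of all genes, and without pair 3 there were 11, against 0.697%, all lower in knockout. Which of the libraries numbered 1 and 3 belong together is not settled by the data, since crossed pairs resembled each other as much as same-numbered ones did. With those numbers crossed 6 members were called lower, Enpp6 (adjusted p = 0.0017) and Gpr17 (adjusted p = 2.7e-04) besides the 4, where 0.746% of all genes were, and none higher, where 0.190% were. Over 17 alternatives to the unpaired fit the adjusted p of Opalin ranged from 8.0e-07 to 1, of Pllp from 0.0016 to 1, of Ugt8a from 7.2e-05 to 1, and of Fa2h from 0.0016 to 1. The log2 fold change of each of these 4 was negative in all of them.

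Some genes of other cell types were called in the same paired fit. The astrocyte genes Aqp4 (log2 fold change -0.80, SE 0.09, adjusted p = 7.6e-04), Gja1 (-0.58, SE 0.08, adjusted p = 0.0020) and Gfap (-0.64, SE 0.09, adjusted p = 0.0029) were lower in knockout, 3 of the 10 astrocyte genes. The list lay on both sides of 0: unpaired, 3 of the 10 lay on the positive side and 7 on the negative. Gjb6, a connexin gene of astrocytes, held 59.2, 57.8 and 46.95 CPM in knockout cerebella, against 38.4, 52.2 and 36.7 CPM in wild-type cerebella, and was not called in the paired fit (log2 fold change 0.37, SE 0.10, adjusted p = 0.15). Sox9, an astrocyte transcription factor, held 39.9, 37.5 and 41.2 CPM in knockout cerebella, against 25.4, 33.0 and 37.1 CPM in wild-type cerebella, without overlap, and was not called (log2 fold change 0.32, SE 0.11, adjusted p = 0.31). The meningeal collagen genes Col1a1 (-1.44, SE 0.16, adjusted p = 7.6e-04) and Col1a2 (-0.91, SE 0.11, adjusted p = 0.0016) were lower as well, 2 of the 8 fibroblast genes. The fibroblast list summed to 60.6 to 74.1 CPM in knockout cerebella, against 98.9 to 105 CPM in wild-type cerebella, and the astrocyte list to 3546 to 4324 CPM in knockout cerebella, against 3813 to 4874 CPM in wild-type cerebella. No gene of the neuronal, microglial, vascular, choroid plexus or Schwann cell lists was called in that fit. The part of these other cells in the myelin gene values was not tested.

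In knockout against wild-type cortex, no member was called, and neither was any other gene by edgeR (0% of all genes in each direction). The direction was the opposite of that in cerebellum: 28 of the 34 log2 fold changes were positive, with a median of 0.32, where 47.9% of all genes were negative and their median was 0.02. At an unadjusted p below 0.05, 1 member was higher, against 4.52% of all genes, and 1 lower, against 2.88%. By DESeq2 0 members were called (0.134% of all genes higher and 0.0689% lower), with 6 higher, against 4.10% of all genes, and 1 lower, against 3.14%, at an unadjusted p below 0.05. The positive median rested on knockout cortex 2, the library with high striatal, thalamic and choroid plexus genes: without it the median was -0.19 and 24 of 34 were negative. Without knockout cortex 1 the median was 0.69 and 3 members (Lhfpl3, Nkx2-2 and Trf) were called higher, against 4.68% of all genes; the only knockout cortex in that fit is the one with the high striatal, thalamic and choroid plexus genes.

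Nkx2-2 had the smallest p in cortex, with 2.5 and 5.85 CPM in knockout 1 and 2, against 1.65 and 2.06 CPM in wild type 2 and 3 (log2 fold change 1.18, SE 0.38, adjusted p = 0.66). Nkx6-2, a homeodomain factor of maturing oligodendrocytes, held 3.27 and 8.07 CPM in knockout cortex, against 2.91 and 3.01 CPM in wild-type cortex (log2 fold change 0.95, SE 0.46, adjusted p = 0.68). For both genes the groups did not overlap, but knockout 1 lay close to wild type. Bmp4 held 1.36 and 1.75 CPM in knockout cortex, against 4.02 and 2.55 CPM in wild-type cortex, also without overlap (log2 fold change -1.07, SE 0.45, adjusted p = 0.68). In all, 4 members were higher without overlap (Nkx2-2, Nkx6-2, Ermn and Aspa), where 14% of all genes were, and 2 lower (Bmp4 and Opalin), where 13.3% were. Opalin in cortex held 3.48 and 7.51 CPM in knockout, against 16.5 and 7.99 CPM in wild type, the last of these close to knockout 2. Pllp held 12.7 and 23.7 CPM in knockout cortex, against 28.1 and 17.9 CPM in wild-type cortex, with overlap. Mbp held 1134 and 3144 CPM in knockout cortex, against 1774 and 874 CPM in wild-type cortex, and the spread within each genotype was larger than the difference between their means.

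In knockout against wild-type hippocampus, no member was called, again with 0% of all genes called in each direction. Of the 34 log2 fold changes 31 were negative, with a median of -0.27, where 50.3% of all genes were negative, and 0 members had an unadjusted p below 0.05, where 1.11% of all genes were higher and 0.798% lower at that level. DESeq2 called 0 members (0% of all genes higher and 0.00810% lower), with 0 at an unadjusted p below 0.05, where 0.972% of all genes were higher and 0.810% lower. All 13 myelin structure genes were negative, with a median of -0.46, and the precursor genes lay near 0, with a median of -0.07. Opalin held 4.28 and 9.42 CPM in knockout 1 and 2, against 23.4 and 19.2 CPM in wild type 2 and 3 (log2 fold change -1.64, SE 0.83, adjusted p = 1). Pllp held 15.8 and 21.1 CPM in knockout hippocampus, against 33.6 and 32.9 CPM in wild-type hippocampus (log2 fold change -0.85, SE 0.52, adjusted p = 1). Both genes were apart by more than the spread within either genotype. Sirt2, the gene of a deacetylase found in myelin, held 74.1 and 81.6 CPM in knockout hippocampus, against 109 and 93.3 CPM in wild-type hippocampus (log2 fold change -0.38, SE 0.20, adjusted p = 1). Mbp held 1470 and 1948 CPM in knockout hippocampus, against 2431 and 2255 CPM in wild-type hippocampus. Altogether 15 of the 34 were lower in knockout without overlap, where 18.6% of all genes were, and none higher, where 18.1% were. Leaving out each library in turn gave medians from -0.43 to -0.17. Genes of other tissue also lay lower in knockout hippocampus: all 8 striatal neuron genes were on the negative side (median log2 fold change -0.63, 0 called), and their sum was 55.8 and 63.6 CPM in knockout 1 and 2, against 79.2 and 90.04 CPM in wild type 2 and 3, without overlap. All 8 choroid plexus genes were negative too, with a median of -1.95 and 0 called, their sum being highest in wild type 2. The part of such tissue in the member values was not tested.

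**Figure D4:**
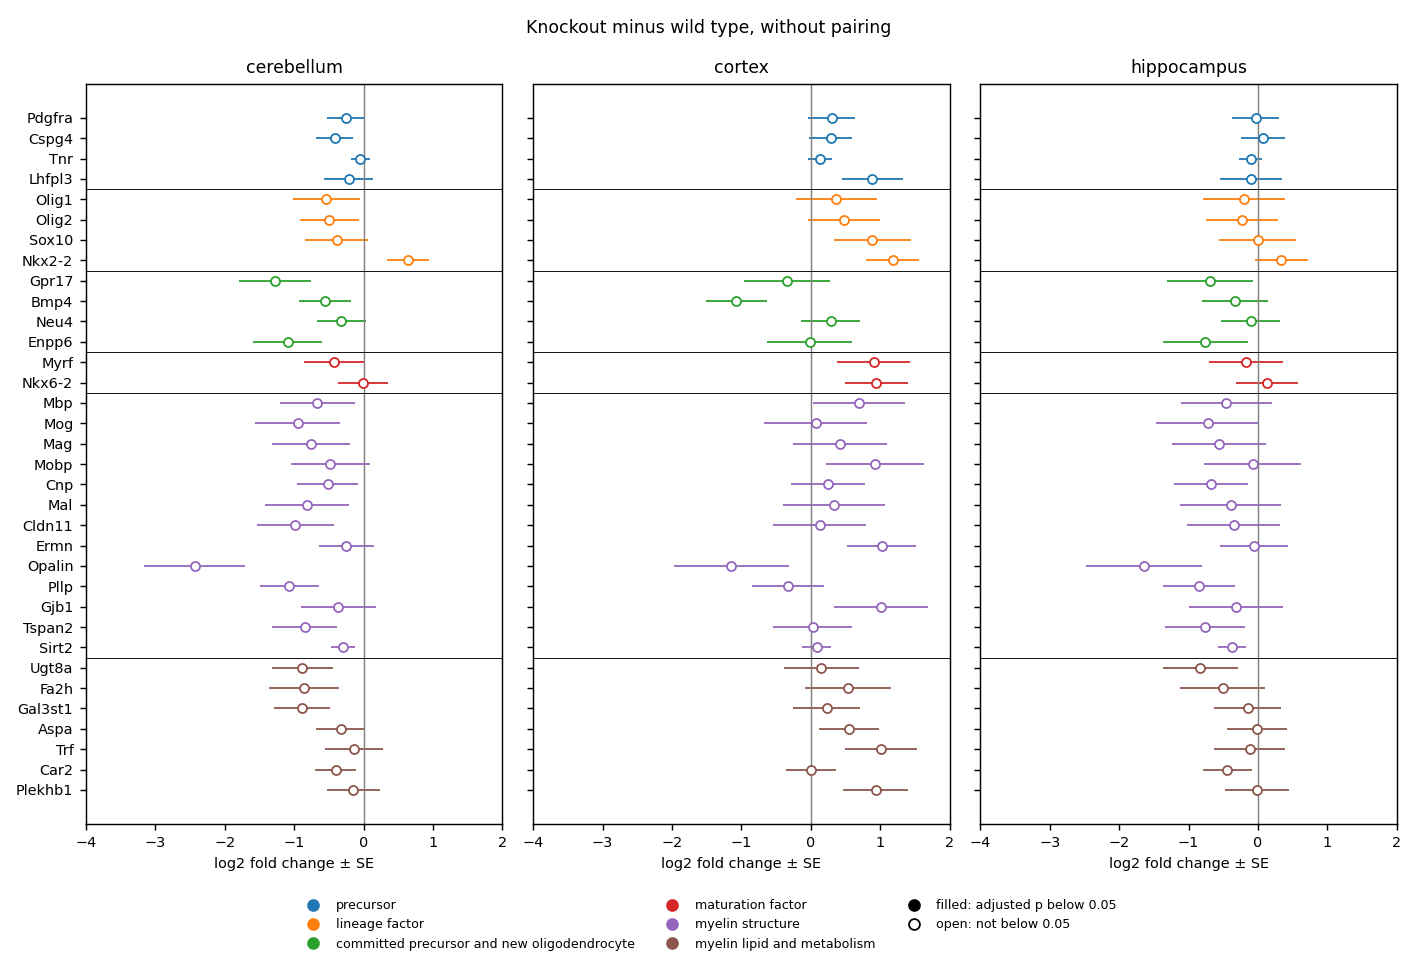
Log2 fold change (x axis, with SE) of knockout minus wild type for each of the 34 genes in cerebellum, cortex and hippocampus, without pairing; filled points would have an adjusted p below 0.05, and all are open. The medians are -0.49 in cerebellum, 0.32 in cortex and -0.27 in hippocampus, and Opalin is negative and Nkx2-2 positive in all 3 regions.

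Averaged over the 3 regions (limma with genotype and sample number as a random block), no member was called and neither was any other gene (0% in each direction). The median over members was -0.11. At an unadjusted p below 0.05, 3 members were lower (Opalin, Pllp and Bmp4), against 2.02% of all genes, and 1 higher (Nkx2-2), against 2.38%. Opalin had a mean log2 fold change of -1.70 (SE 0.47, adjusted p = 0.89), Nkx2-2 of 0.69 (SE 0.22, adjusted p = 0.97) and Pllp of -0.70 (SE 0.29, adjusted p = 1.0). Over 18 alternatives their adjusted p ranged from 0.23 to 1.0 for Opalin, from 0.050 to 1.0 for Nkx2-2 and from 0.41 to 1.0 for Pllp, so none was called in any, and none changed direction. Opalin, Pllp, Gpr17, Enpp6, Bmp4 and Car2 had negative log2 fold changes in each region, as 12.8% of all genes did, and Nkx2-2 alone had positive ones, as 13.1% did. In cortex Car2 (-0.00044) and Enpp6 (-0.018) lay next to 0 and were negative by sign only.

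Whether the knockout difference itself differed between regions was tested as an interaction. None of the 34 genes passed in cerebellum minus cortex, hippocampus minus cortex or cerebellum minus hippocampus (0% of all genes in each), and 0 had an unadjusted p below 0.05 in any of the 3. At that level 2.03% of all genes were positive and 3.28% negative in the first, 1.38% and 1.79% in the second, and 0.750% and 0.741% in the last. The medians over members were -1.03, -0.77 and -0.22. DESeq2 called none either (0% of all genes in each direction in cerebellum minus cortex), with 3 members lower at an unadjusted p below 0.05 there, against 3.12% of all genes, and 0 higher, against 2.16%. The opposite signs in cortex and in the other regions are therefore not shown to differ, and knockout cortex 2 stood apart in other tissue genes.

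Since the lineage shifted as a whole between libraries, each member was also set against the geometric mean of the 34 in its own library. This description was chosen after the values were seen, carries no test, and forces the 34 differences to sum to 0 in each region, so that some are low because others are high. Opalin was lower in every knockout than in every wild-type library of each region, by differences of -1.81 in cerebellum, -1.47 in cortex and -1.40 in hippocampus on the log2 scale. In cerebellum its relative level was -4.61, -3.41 and -3.86 in knockout, against -1.89, -1.62 and -2.94 in wild type. In cortex it was -2.83 and -2.77 in knockout, against -1.13 and -1.54 in wild type, and in hippocampus -2.82 and -2.05 in knockout, against -0.93 and -1.13 in wild type.

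Pllp followed with differences of -0.46, -0.66 and -0.52, and Gpr17 with -0.66, -0.60 and -0.35. Nkx2-2 was higher by 1.12, 0.76 and 0.67, the cytoskeletal myelin gene Ermn by 0.31, 0.63 and 0.28, and Plekhb1 by 0.39, 0.49 and 0.32, in cerebellum, cortex and hippocampus in that order. These 6 members, 3 lower and 3 higher, did not overlap between genotypes in any region. On the same scale 0.0243% of all genes (6 genes, the 3 lower members among them) were lower without overlap in all 3 regions and 0.393% higher. The scale takes the shared shift out of the members and adds it to genes that do not share it. These shares are therefore no fair background for the members. On plain CPM 0 members were without overlap in all 3 regions, where 0.263% of all genes were lower and 0.429% higher. The other 28 members overlapped in at least 1 region on the relative scale.

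**Figure D5:**
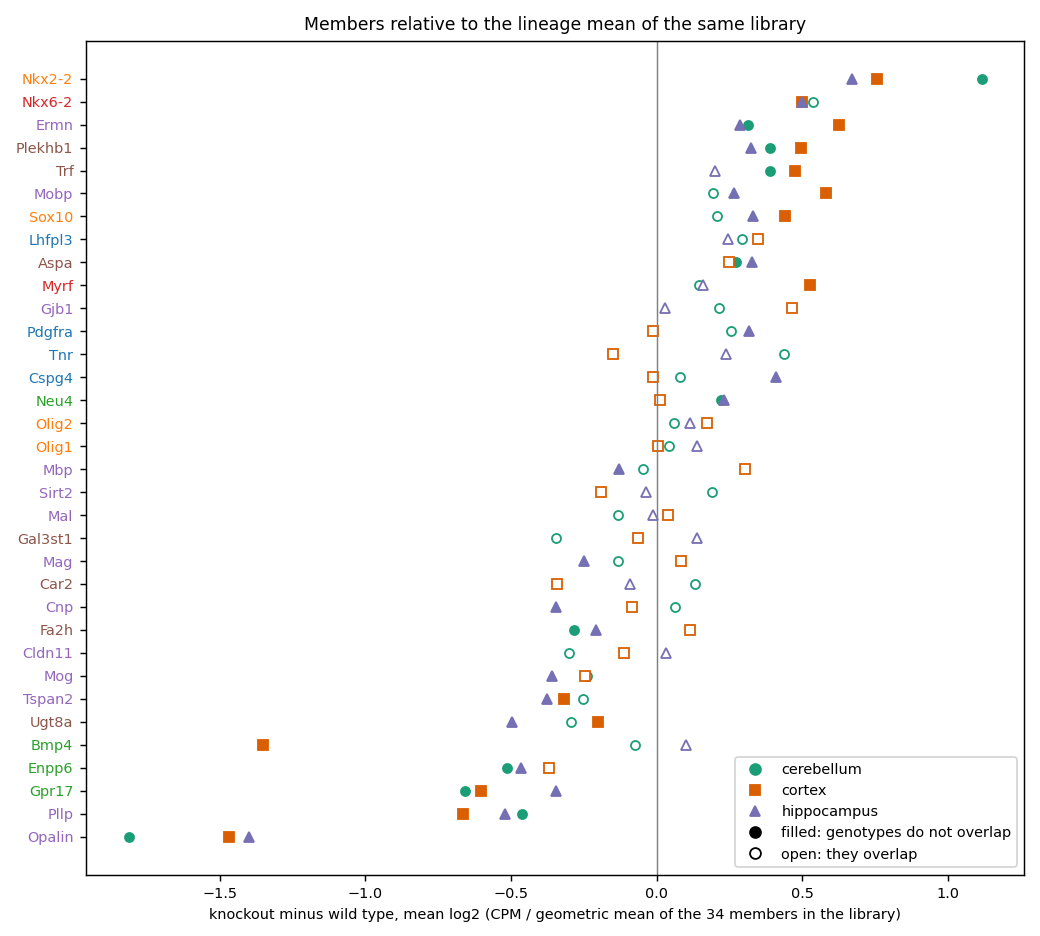
Knockout minus wild type (x axis, log2) of each of the 34 genes after dividing by the geometric mean of the 34 in the same library, in cerebellum, cortex and hippocampus; filled symbols mark regions where the genotypes do not overlap. Opalin lies at the low end at -1.81, -1.47 and -1.40, and Nkx2-2 at the high end at 1.12, 0.76 and 0.67.

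A second list of 34 genes of the lineage, none of them a member, was read beside the first. In knockout cerebellum 31 of these 34 lay on the negative side (median log2 fold change -0.43) and 0 were called unpaired. With the number as a block 2 were lower, where 0.348% of all genes were. They were Gjc3, a connexin gene (log2 fold change -0.74, SE 0.11, adjusted p = 0.0061), and Tubb4a, a tubulin gene (-0.46, SE 0.09, adjusted p = 0.046). In knockout cortex 27 were positive, with a median of 0.32, and in knockout hippocampus 27 were negative, with a median of -0.25, with 0 called in each.

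Within that list, 3 genes lay on the positive side in all 3 regions, as 13.1% of all genes did. By sign alone, such genes were thus no more frequent in the list than among genes at large. Their mean log2 fold changes were 0.99 for Apod (SE 0.26, adjusted p = 0.84), 0.75 for Anln (SE 0.26, adjusted p = 1.0) and 0.68 for Hapln2 (SE 0.28, adjusted p = 1.0). In that mean over regions (limma), 3 of the 34 were higher at an unadjusted p below 0.05, against 2.38% of all genes. At that level 0 were lower, against 2.02%, and 0 were called. Apod, a lipid carrier made by mature oligodendrocytes among other cells, held 280, 309 and 185 CPM in knockout cerebella, against 135, 244 and 168 CPM in wild-type cerebella. In cortex it held 143 and 391.9 CPM in knockout, against 86.1 and 74.5 CPM in wild type, and in hippocampus 175 and 174 CPM in knockout, against 82.3 and 109 CPM in wild type. The genotypes overlapped in cerebellum and did not in cortex or hippocampus, and none of the 3 genes passed the test.

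In cerebellum against cortex 6 of the second list were called higher (Cntn2, Zfp536, Vcan, Klk6, Gjc3 and Adamts4), against 23.0% of all genes. There 3 were lower (Sox6, Matn4 and Pcdh15), against 25.3%. Bulk RNA does not show which cells these reads came from. In cerebellum against hippocampus 5 were higher, against 22.6% of all genes, and 2 lower, against 24.7%. In hippocampus against cortex 1 was higher (Vcan), against 5.49%. Matn4, a matrix gene that precursors make, was lower in cerebellum by both comparisons, with a log2 fold change of -2.03 against cortex (SE 0.31, adjusted p = 1.6e-04). Sox6, a factor of precursors that neurons share, was lower as well, with -1.22 against cortex (SE 0.13, adjusted p = 6.9e-06).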

How the data were processed

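Total RNA from the 3 brain regions was extracted with TRIzol and treated with DNase, per the labels' protocols. The authors deposited raw read counts per gene for all 14 libraries; the submitters' processing notes name Trim Galore 0.6.4, cutadapt 2.10, STAR 2.7.3a and featureCounts 2.0.1 and the build GRCm38.p6, and the strand setting is not given in the sources used here. Symbols and exon lengths came from a GENCODE annotation of that build, and 48058 of 48440 identifiers had a symbol.

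Genes were filtered by filterByExpr (24680 left) and fitted in edgeR 4.0.16 (R 4.3.3) over all 14 libraries, with TMM scaling, 1 mean per region and genotype, 8 residual degrees of freedom and a biological coefficient of variation of 24.7%. Genotype, region and interaction contrasts were tested by the quasi-likelihood test with Benjamini-Hochberg adjustment over all genes; a gene was called at an adjusted p below 0.05. The SE is the log2 fold change over the root of its F statistic. The mean over regions used limma 3.58.1 with voom and genotype plus number as a random block (correlation 0.096). The fits were tested on simulated counts that held no shift shared by a library and no pair effect. That test therefore does not cover the shifts seen in these libraries. Alternatives were size factors of the DESeq2 kind, no filter, DESeq2 1.42.0, limma, blocks, subsets of libraries and leaving out each library.

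Same-numbered cerebella deviated together from their genotype means (correlations over 18320 genes of 0.24, 0.72 and 0.32 for numbers 1, 2 and 3), so the number was used as a pairing block. Crossed pairs of numbers 1 and 3 correlated at 0.29 and 0.43. The block thus rested on the same data that it was used to test. Deviations of 3 libraries from their mean sum to 0, so the 0.72 by itself favours positive values among numbers 1 and 3. The 0.24 and 0.32 are therefore no separate support for pairing by number. The labels do not explain the numbers, or state that libraries come from separate animals, so p-values measure the spread between these libraries, which may be technical. Each region comparison took the mean of both genotypes.

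The members and lists were chosen with earlier results of these data known. Values per library are given for members called in a genotype comparison or interaction, otherwise for the 3 smallest p. Between regions they are given for the called member with the largest change per stage and direction, the cerebella as a range and median. For the most abundant gene of each stage a mean RPKM over the 14 libraries is given. Pairs left out, libraries numbered 2 left out and levels relative to the lineage mean were added after the data were seen.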

Additional observations from a re-analysis of the deposited data

How the results depend on the processing

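In knockout against wild-type cerebellum, 0 members were called lower unpaired, 4 with the replicate block, 6 with numbers 1 and 3 crossed, 5 in the block without pair 1 and 11 without pair 3. Leaving out 1 library at a time, members called higher in knockout cortex ranged from 0 to 3 and members lower in the cerebellum minus cortex interaction from 0 to 1. In cerebellum against cortex, members called higher numbered 4 by DESeq2, 4 with the block and 4 in wild type alone, and 1 to 7 leaving out 1 library. Members called lower there numbered 2 in wild type alone, 12 without both cerebellar libraries numbered 2, and 3 to 10 leaving out 1 library. In cerebellum against hippocampus, members called higher numbered 1 by limma, 1 without a filter, 1 in wild type alone, 1 without the libraries numbered 2, and 0 to 2 leaving out 1 library. Members called lower there numbered 8 by DESeq2, 2 in wild type alone, 16 without the libraries numbered 2, and 3 to 13 leaving out 1 library. In hippocampus against cortex, 1 was called lower with the block (Bmp4) and 0 to 1 leaving out 1 library. No share of all genes is set beside these counts here. They show how the calls moved between settings and not how members compare with genes at large. The replicate block changed no other count of members called by over 1.5 times. Over pairs of a named gene and a setting, 17 gained a call and 18 lost one (9 of them Lhfpl3 against hippocampus), in the same direction each time; the cause was not tested. No paired genotype fit was made in cortex or hippocampus, where the genotypes share only the number 2. Cortex and hippocampus had 2 libraries a genotype and Opalin 20 to 105 reads in knockout cerebella; which size of difference could be detected was not tested.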
